A study of Rattus norvegicus with 14 samples.

Results

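The leukocyte and immune miRNAs described here are the mature products of 7 precursors, miR-142, miR-223, miR-150, miR-342, miR-155, miR-146a and miR-146b. They were picked out by precursor name, with no threshold on a measured value, though the 7 names were proposed with earlier results of these data known. They matched 9 of the 375 mature miRNAs in the deposited table. Both arms were listed for miR-142 and miR-223, and 1 arm for each of the other 5 precursors. All 9 passed the filter on low counts, which 357 miRNAs passed in all.

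The samples were serum of female Long Evans rat pups on postnatal day 8, 1 pup per litter. In 8 litters (Control, labelled euthyroid) the dam's drinking water held 0 ppm of PTU (propylthiouracil, which blocks thyroid hormone synthesis). In 6 litters (PTU, labelled hypothyroid) it held 3 ppm, given in pregnancy or lactation, so the pups were exposed only through the dam. Cell-free RNA was sequenced as small RNA, 1 library per pup, and every library is a separate animal. The study asks how low thyroid hormone in the pup changes the miRNAs in its serum.

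A miRNA is cut from a hairpin, whose 2 arms can each give a mature strand, and it lowers the output of mRNAs that pair with its seed, bases 2 to 8. miR-142 is made across blood cells, miR-223 mainly in the myeloid line (neutrophils, monocytes and platelets) and miR-150 in mature lymphocytes. miR-342 comes from an intron of Evl and is also found in blood cells. miR-155 and miR-146a are induced when immune cells are activated: miR-155 favours the inflammatory response, whereas miR-146a is induced through NF-kB and restrains it by acting on Traf6 and Irak1. miR-146b is a paralog of miR-146a.

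RefSeq sequences (GRCr8) matched 8 of the 9. They are shown 5′ to 3′ with the seed in capitals, because the seeds show which members could share targets.
miR-142-3p: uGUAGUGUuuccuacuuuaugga
miR-142-5p: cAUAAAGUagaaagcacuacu
miR-223-3p: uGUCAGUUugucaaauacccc
miR-223-5p: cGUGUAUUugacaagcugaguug
miR-342-3p: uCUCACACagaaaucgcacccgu
miR-155-5p: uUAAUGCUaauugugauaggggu
miR-146a-5p: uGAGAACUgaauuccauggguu
miR-146b-5p: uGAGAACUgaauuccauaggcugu
Only miR-146a-5p and miR-146b-5p have a seed in common, and no other tested miRNA with a sequence shares the seed of any of the 8. Counted from 1 at the 5′ end, these 2 are identical over their first 17 bases. Over the 22 aligned bases they differ at G18A and U21C (miR-146a-5p first), and miR-146b-5p is 2 bases longer. A counter that allows mismatches could divide reads between them differently.

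The hairpin of miR-142 is shown because both arms were counted in serum and their ratio was compared. The 5p arm comes first and the 3p arm second, both in capitals, with 15 bases between them; it lies at chr10:73055104-73055190 of GRCr8, on the plus strand.
Mir142 hairpin: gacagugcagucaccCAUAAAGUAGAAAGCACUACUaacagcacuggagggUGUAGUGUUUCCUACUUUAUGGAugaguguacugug
In the GRCr8 gene table Mir142 lies within the span of Tspoap1, beside Mpo (myeloperoxidase). Mir155 lies within Mir155hg, its host transcript, and Mir342 within Evl. Mir146a and Mir142 are both on chromosome 10, Mir150 and Mir146b on chromosome 1, and Mir223 on X.

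Total counts over the listed miRNAs ran from 452961 to 2119979 per library, and a count of 3 corresponded to between 1.44 and 6.37 CPM (counts scaled to library size with TMM factors, the trimmed mean of M values). PTU replicate 6 stood apart. It was the highest or lowest of the 14 libraries for 36.7% of the 357 tested miRNAs, where the next library, Control replicate 6, was so for 22.1%. Red cell miRNAs were detected in every library, and the sum of the 5 listed (miR-144 and miR-451, both arms, and miR-363-3p) ran from 1802 to 6058 CPM in controls and from 2857 to 19312 CPM in PTU, the last in PTU replicate 6. Serum is a bulk sample, so fewer cells of a type and less RNA released per cell cannot be told apart.

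The 9 miRNAs together took between 1.08% and 1.40% of the counts in control libraries, with a median of 1.18%. In PTU libraries they took between 0.866% and 2.08%, with a median of 1.38%. The PTU range enclosed the control range, with PTU replicate 2 lowest and PTU replicate 3 highest. A count stands for 1 read or 1 molecule of a mature miRNA, and which of these is not stated. The 8 with a sequence were 21 to 24 bases long, so CPM was compared between miRNAs with no further length correction. Ligation can still favour some sequences.

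By mean CPM over the 14 libraries the order was miR-142-3p (2964), miR-146a-5p (2783), miR-142-5p (2728), miR-223-3p (1914), miR-342-3p (1021), miR-150-5p (807), miR-146b-5p (619), miR-155-5p (106) and miR-223-5p (14.6). The order of the top 3 differed between the groups. miR-142-3p exceeded miR-146a-5p in 1 of 8 control and 5 of 6 PTU libraries, and miR-146a-5p exceeded miR-142-5p in 6 of 8 control and 2 of 6 PTU libraries. In controls miR-146a-5p had the highest mean, 3102 ± 318 CPM (SD, n = 8). The steps from miR-223-3p to miR-342-3p, from miR-146b-5p to miR-155-5p and from miR-155-5p to miR-223-5p held in all 14. miR-142-5p was above miR-223-3p in 11 libraries, miR-342-3p above miR-150-5p in 12, and miR-150-5p above miR-146b-5p in 13.

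**Figure D1:**
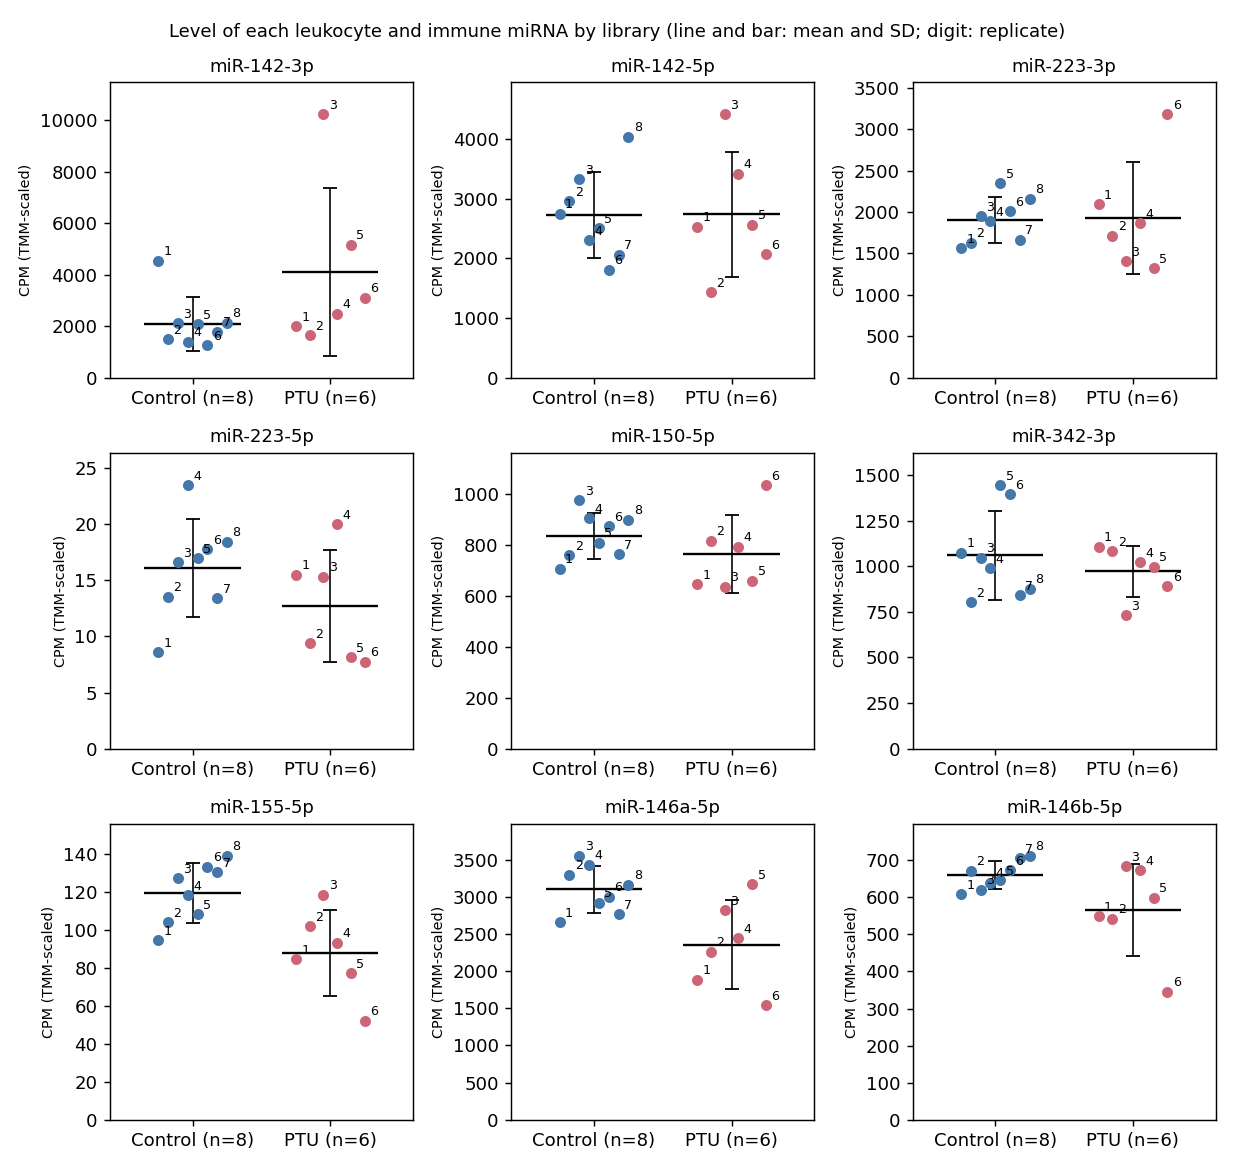
CPM (TMM-scaled) of each of the 9 miRNAs in the 8 Control and 6 PTU libraries, on linear axes from 0; points are libraries with their replicate number, lines and bars the mean and SD. PTU replicate 3 is far above the rest for miR-142-3p at 10244 CPM, and PTU replicate 6 is lowest for miR-155-5p, miR-146a-5p and miR-146b-5p.

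None of the 9 passed a false discovery rate of 0.05 between PTU and Control by edgeR's quasi-likelihood test, adjusted over the 357 tested miRNAs, of which 0% passed. At an unadjusted p under 0.05 there were 3 of the 9, against 13.2% of all tested miRNAs. miR-142-3p was 1 with a higher PTU mean (7.84% of all tested), and miR-155-5p and miR-146a-5p were the 2 with a lower one (5.32% of all tested). Neither DESeq2 nor limma-voom called any of the 9, where they called 0.28% and 0% of all tested. Each also gave 3 of the 9 at an unadjusted p under 0.05, against 12.6% of all tested by DESeq2 and 15.1% by limma-voom. In no member were the groups free of overlap, which 0.56% of the tested miRNAs showed. The log2 fold change was negative in 6 of the 9, against 42.3% of all tested, with a median of -0.13 against 0.03 over all tested. With upper-quartile factors, which moved the median of all miRNAs by -0.11, it was negative in 8 of the 9 and in 61.9% of all tested. In the authors' deposited table the lowest FDR among the 9 was 0.196, for miR-142-3p.

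**Figure D2:**
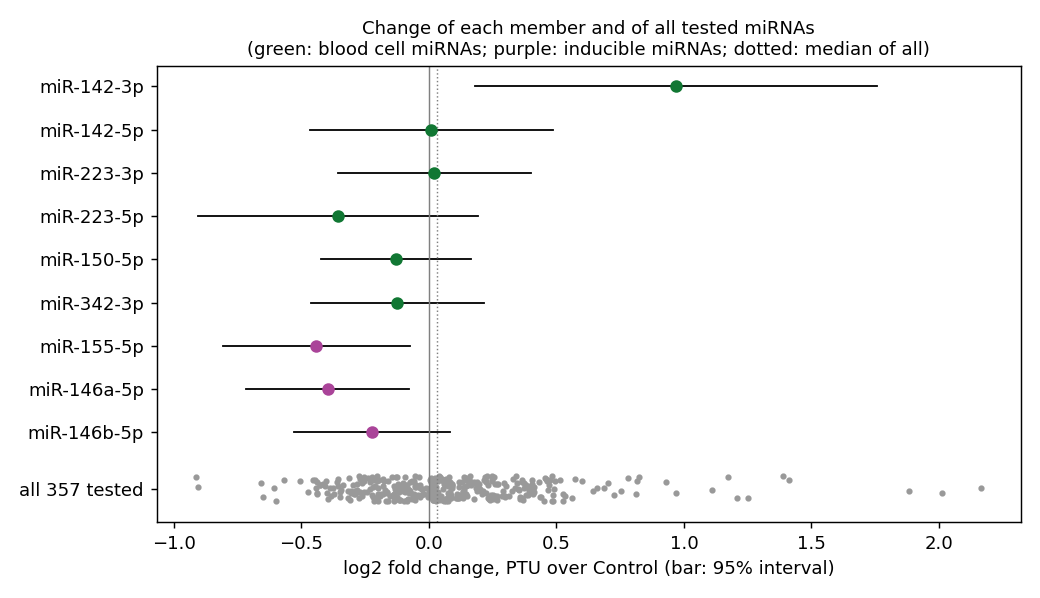
Log2 fold change of PTU over Control for the 9 miRNAs (points, with bars for the 95% interval) and for all 357 tested miRNAs (grey points, spread vertically for legibility). miR-142-3p lies at 0.97, and the intervals of miR-155-5p and miR-146a-5p lie below 0.

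Among the blood cell miRNAs, miR-142-3p had the largest difference and the widest spread. Its control libraries ran from 1258 to 4547 CPM with a median of 1933. Its PTU libraries ran from 1663 to 10244 CPM with a median of 2803. The high libraries were PTU replicates 3 (10244 CPM) and 5 (5161 CPM) and Control replicate 1 (4547 CPM). The other PTU libraries lay within the control range, whose upper end was Control replicate 1 alone. The next control had 2142 CPM. PTU replicates 6 (3111 CPM) and 4 (2494 CPM) were above that value, and PTU replicates 1 (1998 CPM) and 2 (1663 CPM) below it. The control mean was 2103 ± 1046 CPM (SD, n = 8) and the PTU mean 4112 ± 3249 CPM (SD, n = 6). On the log2 scale PTU exceeded Control by 0.97 ± 0.37 (SE), with a 95% interval from 0.18 to 1.76 and an edgeR adjusted p of 0.258. Without PTU replicate 3 it was 0.47 with an unadjusted p of 0.154 by edgeR. With Control replicate 1 left out instead it was 1.23, with an unadjusted p of 0.00298 and an adjusted p of 0.133 by edgeR. Its biological coefficient of variation, edgeR's measure of spread between animals beyond counting noise, was 0.485, the 22nd highest of 357, where the median of all tested miRNAs was 0.260.

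For miR-142-5p, the other arm of the same hairpin, the group means lay close together. Its control libraries ran from 1813 to 4039 CPM with a median of 2629, and its PTU libraries from 1434 to 4418 CPM with a median of 2548. The ranges overlapped almost wholly, with PTU replicate 2 lowest and PTU replicate 3 highest. Its fold change on the log2 scale was 0.01 ± 0.23 (SE), with a 95% interval from -0.47 to 0.49 (edgeR adjusted p = 0.985), and its sign changed with upper-quartile factors (-0.092).

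The ratio of the 2 arms within a library does not depend on scaling. In controls the 3p arm was at 0.504 to 1.65 times the 5p arm, and Control replicate 1, at 1.65, was the 1 control above 1. Across PTU replicates 1 to 6 it was 0.790, 1.16, 2.32, 0.730, 2.01 and 1.50. The 3p arm was thus the more abundant in 4 of 6 PTU libraries and 1 of 8 controls. The mean log2 ratio was -0.44 ± 0.55 in controls (SD, n = 8) against 0.37 ± 0.69 in PTU libraries (SD, n = 6). The difference of 0.82 had an exact two-sided permutation p of 0.0336 over all 3003 splits, and an adjusted p of 0.365 over the 94 precursors with both arms tested. It did not pass. Of these 94, 0% passed a false discovery rate of 0.05 and 10.6% had an unadjusted exact p under 0.05. The difference for miR-142 ranked 4th in size among the 94, and its spread within groups ranked 19th. Over single libraries left out it ran from 0.65 (without PTU replicate 3) to 0.98 (without Control replicate 1, exact permutation p = 0.00524, adjusted p = 0.123).

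Red cell miRNAs were high in some of the same libraries. The summed red cell markers were at 12499 CPM in PTU replicate 3, 7972 in PTU replicate 5 and 5956 in Control replicate 1, where the control median was 4950 CPM. The largest part of this sum was miR-451-5p, with a PTU mean of 7708 CPM against 893 for miR-144-5p and 783 for miR-144-3p. Other libraries with sums above the control median had less miR-142-3p than these 3. The sum was 19312 CPM in PTU replicate 6, 9201 in PTU replicate 4 and 6058 in Control replicate 8, where miR-142-3p was at 3111, 2494 and 2142 CPM. With the haemolysis ratio (miR-451-5p over miR-23a-3p, log2), commonly used to gauge haemolysis, as a covariate, the log2 fold change of miR-142-3p was 0.26 with an unadjusted p of 0.468 by edgeR. That of miR-142-5p was -0.46 with an unadjusted p of 0.0232 by edgeR (adjusted p = 0.452). The ratio itself ran from -1.23 to 0.58 in controls and from -0.51 to 1.54 in PTU libraries. Of the 5 red cell miRNAs, 4 were higher in PTU at an unadjusted p under 0.05 by edgeR (7.84% of all tested). There were 0 lower (5.32% of all tested), and none passed the adjusted threshold. Without PTU replicate 6 there were 2 higher and 0 lower (13.6% of all tested in either direction). This fit therefore cannot tell a red cell part apart from an effect of PTU. The part of red cell RNA in the difference was not tested.

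**Figure D3:**
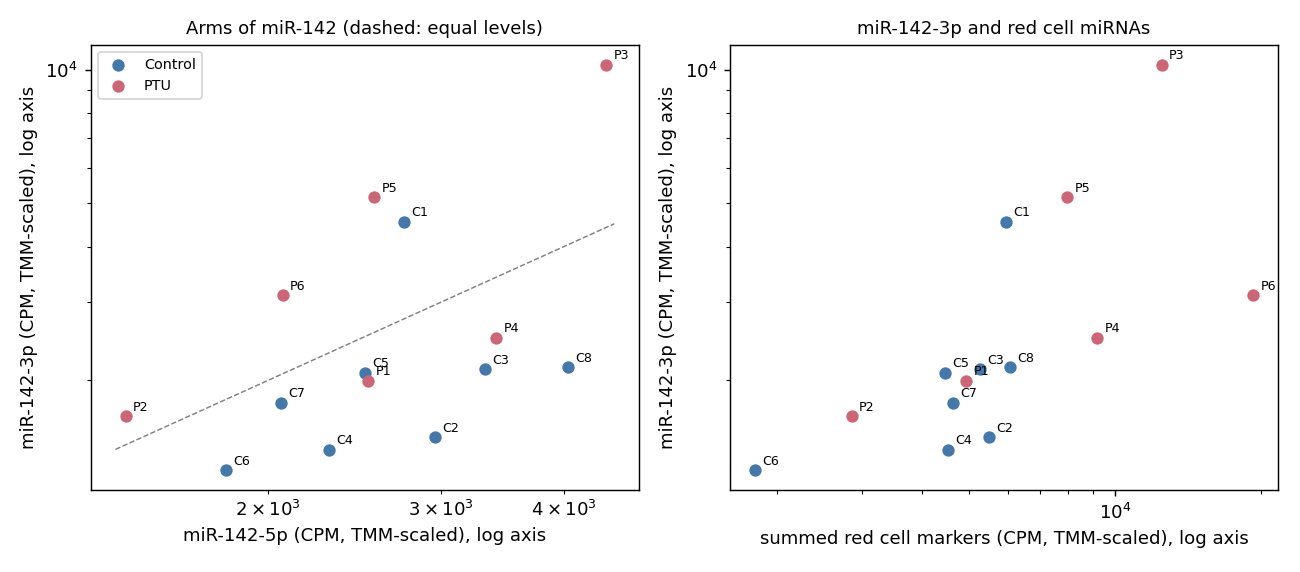
miR-142-3p (vertical axes) against miR-142-5p and against the summed red cell markers in each library, in TMM-scaled CPM on log axes; C and P stand for Control and PTU with the replicate number, and the dashed line marks equal levels of the arms. PTU replicates 2, 3, 5 and 6 and Control replicate 1 lie above the dashed line.

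**Figure D4:**
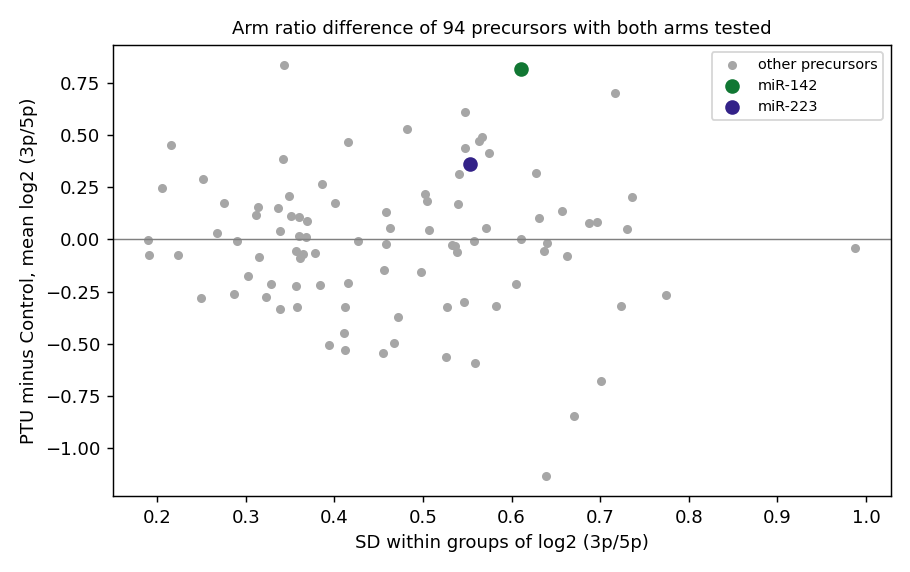
Difference between PTU and Control in the mean log2 ratio of 3p to 5p arm (vertical axis) against the SD of that log2 ratio within groups (horizontal axis), 1 point for each of 94 precursors. miR-142 lies at 0.82 and miR-223 at 0.36, both at a spread above the median of 0.46.

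miR-223-3p, the myeloid miRNA, did not separate the groups. Control libraries ran from 1560 to 2346 CPM with a median of 1921, and PTU libraries from 1321 to 3182 CPM with a median of 1790. PTU replicate 6 alone exceeded the highest control, and PTU replicates 3 and 5 lay below the lowest. On the log2 scale the fold change came to 0.02 ± 0.18 (SE), with a 95% interval from -0.36 to 0.40 (edgeR adjusted p = 0.968), and without PTU replicate 6 it was -0.21. Its sign was also negative with upper-quartile factors (-0.12).

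The other arm, miR-223-5p, was the scarcest of the 9, with 5 to 32 counts per library. Controls ran from 8.62 to 23.5 CPM with a median of 16.8, and PTU libraries had a median of 12.4 CPM, with a lowest value of 7.76 CPM in PTU replicate 6; the ranges overlapped. It had a log2 fold change of -0.36 ± 0.26 (SE), with an edgeR adjusted p of 0.535. The 3p arm was between 79.0 and 165 times the 5p arm in controls and between 90.3 and 392 times in PTU, the last in PTU replicate 6. The difference of 0.36 in the mean log2 ratio had an exact two-sided permutation p of 0.272 (adjusted p = 0.704 over the 94 precursors), and was 0.081 without PTU replicate 6.

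miR-150-5p, the lymphocyte miRNA, had the lowest biological coefficient of variation of the 9, at 0.206, where miR-146b-5p had 0.212. By the SD of log2 CPM it was not the lowest in either group. In controls miR-146b-5p had 0.082 against its 0.157, and in PTU miR-342-3p had 0.222 against its 0.274. Controls ran from 709 to 976 CPM with a median of 843. PTU libraries ran from 637 to 1037 CPM with a median of 727, and 5 of the 6 were below the control median, the exception being PTU replicate 6. With all libraries the log2 fold change came to -0.13 ± 0.14 (SE), with a 95% interval from -0.42 to 0.16 (edgeR adjusted p = 0.718). Without PTU replicate 6 it was -0.27, with an unadjusted p of 0.0381 and an adjusted p of 0.311 by edgeR.

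miR-342-3p ran from 802 to 1445 CPM in controls with a median of 1018, and from 732 to 1106 CPM in PTU with a median of 1008. Control replicates 5 and 6 were its high libraries. The estimate on the log2 scale was -0.12 ± 0.16 (SE), with a 95% interval from -0.46 to 0.21 (edgeR adjusted p = 0.779), and limma-voom gave 0.0096.

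The 3 inducible miRNAs had lower PTU means, and none passed the adjusted threshold. miR-155-5p ran from 94.8 to 139 CPM in controls with a median of 123. In PTU libraries it ran from 52.2 to 119 CPM with a median of 89.1, so that all 6 lay below the control median and 4 below the lowest control. PTU over Control came to -0.44 ± 0.17 on the log2 scale (SE), with a 95% interval from -0.81 to -0.08 and an edgeR adjusted p of 0.258. The counts behind it were 51 to 248 per library.

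miR-146a-5p was a more abundant member with a shift of like size. Controls ran from 2661 to 3556 CPM with a median of 3086, and PTU libraries from 1546 to 3174 CPM with a median of 2355. Of the 6 PTU libraries 4 lay below the lowest control, and PTU replicate 5 was the 1 above the control median. Its log2 fold change of -0.40 ± 0.15 (SE) had a 95% interval from -0.72 to -0.08 and an edgeR adjusted p of 0.258.

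miR-146b-5p had the narrowest control range for its level, from 609 to 712 CPM with a median of 659. PTU libraries ran from 346 to 684 CPM with a median of 574, and 4 of 6 lay below the lowest control. Its log2 fold change of -0.22 ± 0.15 (SE) had a 95% interval from -0.53 to 0.08 and an edgeR adjusted p of 0.494. PTU replicate 6 had the lowest value of all 14 libraries for these 3 miRNAs. Without it the log2 fold changes were -0.36 for miR-155-5p, -0.33 for miR-146a-5p and -0.14 for miR-146b-5p. All 3 stayed negative in each of the 23 other settings tried, and none of the 3 passed the adjusted threshold in any of these. The settings reuse the same libraries, so a stable sign is not independent support. Their highest unadjusted p, each by edgeR, was 0.0816 for miR-155-5p, 0.0503 for miR-146a-5p and 0.313 for miR-146b-5p.

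The ratio of miR-146a-5p to miR-146b-5p compared the paralogs that share a seed. It ran from 3.92 to 5.73 in controls with a median of 4.49, and from 3.43 to 5.30 in PTU with a median of 4.15. On the log2 scale it averaged 2.23 ± 0.18 in controls (SD, n = 8) against 2.05 ± 0.22 in PTU libraries (SD, n = 6). The difference of -0.18 had an exact permutation p of 0.125 (two-sided) and did not pass. PTU replicate 5 had the highest ratio of the PTU libraries, and with it left out the difference was -0.25 with an exact permutation p of 0.0311. This single comparison was chosen with earlier results known and was not adjusted.

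The heat map of the 9 miRNAs shows how they varied library by library. In 8 of the 9 the SD of log2 CPM was larger in PTU than in Control, as in 57.7% of all tested miRNAs; the exception was miR-342-3p. PTU replicate 6 was the highest of 14 for miR-223-3p and miR-150-5p and the lowest for miR-146a-5p, miR-146b-5p, miR-155-5p and miR-223-5p, so 6 of the 9 had their extreme there, against the 36.7% over all tested miRNAs given above. PTU replicate 3 was the highest for both arms of miR-142 and the lowest for miR-342-3p and miR-150-5p. At an unadjusted p under 0.05 by edgeR there were 4 of the 9 without PTU replicate 6 (13.6% of all tested in that fit) and 2 without PTU replicate 3 (15% of all tested).

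**Figure D5:**
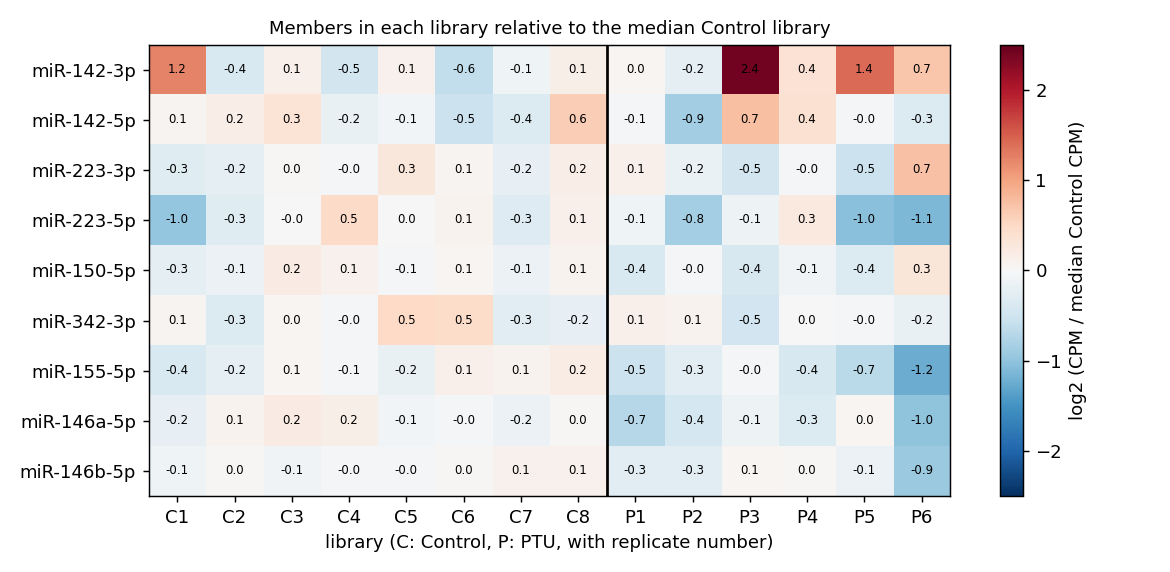
Log2 of each miRNA's CPM over its median in the Control libraries, for 8 Control (C) and 6 PTU (P) libraries in columns; red is higher, blue lower, and the printed digits are the log2 values. The column of PTU replicate 6 is blue for the inducible miRNAs and red for miR-223-3p and miR-150-5p.

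Likeness between miRNAs was described by Pearson's r of log2 CPM over the 14 libraries, after the group means were taken off. The miRNAs of a library share its depth, scaling and red cell RNA, so the values are a description. Those for miRNAs outside the 9 are the 3 highest among all tested non-members. Over 14 libraries such picked values can be high for any miRNA, and the top r usual for a tested miRNA was not computed. Outside the 9, miR-142-3p was most like both arms of the erythroid miR-144, with r = 0.96 for miR-144-5p and 0.85 for miR-144-3p (0.92 and 0.83 without the 2 libraries in which miR-142-3p lay farthest from its median), followed by miR-210-3p at 0.81 (0.66 without them). miR-142-5p was most like miR-16-5p (0.88), miR-17-1-3p (0.87) and miR-93-5p (0.86), or 0.79, 0.77 and 0.76 without its 2 farthest libraries. The arms of miR-142 had r = 0.61 with each other.

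miR-342-3p was most like miR-328a-3p (0.90), miR-760-3p (0.88) and miR-193-5p (0.86), or 0.87, 0.83 and 0.88 without its 2 farthest libraries. miR-146a-5p was most like miR-127-5p (0.79), miR-300-3p (0.74) and miR-376b-3p (0.72), or 0.80, 0.62 and 0.65 without its 2 farthest. miR-155-5p and miR-146b-5p both had miR-379-5p and miR-199a-3p among their 3 most alike, with r between 0.81 and 0.83. These fell to between 0.46 and 0.56 without the 2 libraries farthest from the median, PTU replicates 3 and 6. miR-146b-5p and miR-155-5p had r = 0.81 with each other, and 0.35 without those 2 libraries. miR-223-3p and miR-150-5p both had miR-196b-5p among their 3 most alike (0.81 and 0.79, or 0.71 and 0.66 without the 2 farthest libraries of each), and miR-223-3p had r = 0.83 with miR-484, or 0.53 without PTU replicates 5 and 6.

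A wider list of 34 other immune-linked miRNAs, 33 of them tested, gave 0 calls in either direction. At an unadjusted p under 0.05 by edgeR there were 4 higher in PTU (7.84% of all tested) and 0 lower (5.32% of all tested). The 4 were miR-222-3p (log2 fold change 1.17), miR-29b-3p (2.01), miR-15b-5p (0.64) and miR-18a-5p (0.40). Without PTU replicate 6 their values were 0.45, -0.075, 0.26 and 0.49, and the list then had 2 higher (miR-222-3p and miR-18a-5p) and 3 lower at that threshold. The lower ones were miR-29a-3p (-0.34), miR-29c-3p (-0.32) and miR-27a-3p (-0.30). The log2 fold change was positive in 24 of the 33 and in 57.7% of all tested, with a median of 0.09 against 0.03 over all tested. With upper-quartile factors it was positive in 16 of the 33 and 38.1% of all tested, and without PTU replicate 6 in 19 of the 33 and 51% of all tested. The abundant miR-21-5p, induced in activated immune cells, had a control mean of 6427 ± 535 CPM (SD, n = 8) and a PTU mean of 6830 ± 2175 CPM (SD, n = 6). miR-181a-5p, which tunes signalling in developing T cells, had a control mean of 1751 ± 492 CPM and a PTU mean of 1986 ± 196 CPM, a difference within the spread between animals.

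Platelet and endothelial miRNAs, another source of blood RNA, summed to 26585 to 31285 CPM in controls and 25172 to 45391 CPM in PTU over the 6 listed. These were miR-126a (both arms), miR-21-5p, miR-24-3p, miR-23a-3p and miR-191a-5p. miR-191a-5p and miR-21-5p had the highest control means, 9508 and 6427 CPM. Both are also on the wider immune list, as is miR-24-3p, and miR-23a-3p is part of the haemolysis ratio, so these readings are not independent. None of the 6 had an unadjusted p under 0.05 by edgeR (13.2% of all tested), and their median log2 fold change was 0.08. Without PTU replicate 6 all 6 were negative, with a median of -0.13, and 2 had an unadjusted p under 0.05 (13.6% of all tested), miR-23a-3p at -0.28 and miR-126a-5p at -0.38. The highest sum was that of PTU replicate 6, and the other PTU libraries had at most 30408 CPM. miR-223-3p, which platelets also hold, was highest in the same library, and the part of platelet RNA in that value was not tested.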

How the data were processed

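The authors deposited a single table of raw counts, 1 column per library, for 375 mature miRNAs. Its other columns, also deposited by the authors, give for each miRNA a p-value and FDR, a log2 fold change with the mean log2 CPM, and each group's mean count, a linear signal. edgeR is the tool named in the submitters' processing notes. The aligner, miRNA reference, build and low-count filter were not given in the sources used here. Per the labels' protocols the libraries came from a QIAseq miRNA kit and 22 PCR cycles. It is not stated whether its molecular identifiers were used in counting, so counting floors cover counting error only.

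Counts were fitted over the whole table with edgeR 4.0.16 in R 4.3.3 (filterByExpr, TMM, quasi-likelihood test, all 14 libraries, no covariate, Benjamini-Hochberg at 0.05). Standard errors are the absolute log2 fold change over the square root of F. log2 CPM used a prior count of 2. Ratios added 0.5 to each count and were compared over all 3003 splits; the smallest p these allow is 0.000333. The precursors and lists were chosen with earlier results of these data known. All 9 miRNAs are given, with full statistics for the most abundant arm of each precursor and those with an unadjusted p under 0.05. Likeness was ranked over non-members, for the top 3. miR-21-5p and miR-181a-5p were named after their values were seen. Alternatives were other scalings and filters, DESeq2 1.42.0, limma-voom (limma 3.58.1) with quality weights, covariates, and each library left out. No pair of libraries within a group was near sampling noise (smallest chi-square per degree of freedom 21.7). Pairs across the groups were not compared in this way.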

Additional observations from a re-analysis of the deposited data

Results flagged for a closer look

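Control replicate 1 stood apart from the other controls for miR-142-3p, at 4547 CPM, where the next control had 2142 CPM. In the same library the log2 ratio of the 3p to the 5p arm of miR-142 was 0.73, where the other controls ran from -0.99 to -0.21. The gap to the nearest control exceeded Dixon's critical value in both. These were the 2 of 24 groups of values checked that did so, and chance gives about 1 in 20. Both rest on the same counts of miR-142-3p. Without this library the log2 fold change of miR-142-3p was 1.23 (adjusted p = 0.133 by edgeR, against 0.133 to 0.854 over all alternatives).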

How the results depend on the processing

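None of the 9 miRNAs passed the adjusted threshold in any of the 23 alternatives. Over all tested miRNAs 0 passed, with 1 by DESeq2 and 0 to 1 over single libraries left out (1 without PTU replicate 5). Of the arm ratios 0 passed, 1 with a pseudocount of 2 and 0 over libraries left out. The difference in the ratio of miR-146a-5p to miR-146b-5p ran from -0.25 to -0.12 over libraries left out. Its unadjusted exact p was under 0.05 in 1 of 16 alternatives, without PTU replicate 5 (exact permutation p = 0.0311). Values near 0 changed sign. miR-223-3p had -0.12 with upper-quartile factors, -0.11 with limma-voom, -0.026 with the replicate block and -0.21 to 0.13 over libraries left out. miR-142-5p had -0.092 with upper-quartile factors, -0.46 with the red cell ratio as covariate and -0.18 to 0.14 over libraries left out. miR-342-3p had 0.0096 with limma-voom and 0.040 with the red cell ratio. The cause was not tested. The other 6 kept their sign in all 23, with miR-142-3p between 0.26 and 1.23. All 23 reuse the same libraries, so they are not independent of each other.

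Same-numbered libraries of the 2 groups were not paired by the labels. Their deviations had correlations from -0.25 to 0.29. Libraries with different numbers were not compared in this way, so these values cannot show whether same-numbered libraries share anything more. With the replicate block edgeR called 0 of the 9, gave miR-142-3p 0.81 (adjusted p = 0.643), and the exact sign-flip test gave the miR-142 arm ratio a difference of 0.78 (p = 0.0938) and the miR-146a-5p to miR-146b-5p ratio -0.23 (p = 0.125). The low counts of miR-223-5p limit its precision.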
